A study of Mus musculus with 6 samples.

Results

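The mitochondrial ribosome and the mitochondrial carriers were followed in samples sorted for young cortical neurons. Gene symbols began with Mrpl (proteins of the large ribosomal subunit), Mrps (proteins of the small subunit) or Slc25a (solute carrier family 25). Members were the rows of the deposited gene table that carry 1 such symbol, which gave 120 genes of 22544: 47 in the large subunit, 29 in the small subunit and 44 carriers. The samples came from the cortex of Swiss Webster mice: upper-layer neurons labelled with green fluorescent protein (GFP) and sorted by fluorescence, at postnatal day 3 (P3, 3 biological replicates) and postnatal day 5 (P5, 3 biological replicates). Both ages shared the strain, the label, the sort and standard husbandry, and no treatment other than age distinguished them. The construct that put GFP into the cells is not given in the sources used here.

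Mitochondria keep a small genome of their own, and the proteins it encodes are core subunits of the respiratory chain. They are made inside the organelle on a ribosome descended from a bacterial one, whose RNAs come from the mitochondrial genome and whose proteins are all encoded in the nucleus and imported. The Slc25 carriers sit mainly in the inner membrane and exchange nucleotides, phosphate, amino acids, carboxylates and cofactors between the matrix and the cytosol. In neurons they include the exchanger that sends ATP out to the cell and the carriers of the malate-aspartate shuttle, which moves reducing equivalents into the matrix.

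Expression is given as FPKM (fragments scaled by transcript length and by the size of the library). Levels are compared between genes as a description only, because members differ in transcript length and its part in their FPKM was not tested. The longest coding transcript has, for example, 478 bases for Mrpl33 and 1925 bases for Slc25a4. The authors' deposited table holds 1 FPKM value per age, pooled over the replicates by Cuffdiff, so no value per sample can be shown and depth is unknown. Every ratio below is the log2 of the P5 FPKM over the P3 FPKM, and its standard error (SE) is the absolute ratio divided by the absolute value of the deposited test statistic, whose sign is opposite to that of the ratio throughout. In such bulk samples, fewer cells of a type and less RNA per cell cannot be told apart.

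The members' promoters are shown first, because they carry a feature that the choice by symbol did not use and that separates the ribosomal genes from the carriers in share. RefSeq promoter windows on build GRCm38.p6, from 250 bases before to 50 bases after each start site, were matched by symbol for 101 of the 120 members, with 116 start sites in all. Both strands were searched for 3 motifs linked in the literature to genes of mitochondrial function, namely NRF1 (GCGCANGCG, where N is any base), ETS family factors (CCGGAAG) and YY1 (AAGATGGCG). The NRF1 motif is nearly its own reverse complement, so its matches on both strands can overlap. In the stretches below, which end at the base before the start site, capitals mark the matches of these motifs. Those of Mrpl22 and Mrpl32, and of Mrps18a and Mrps22, were chosen within their classes by the motifs in the 150 bases shown. The order was by the number of kinds of motif, then by the number of matches. Ties were settled by the higher mean FPKM, so level had a part in that choice. Promoters with the opposite start of another gene within 150 bases were left out of that choice. Slc25a4 was chosen by name, so the stretches are examples and do not compare the classes.

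The first pair belongs to large-subunit genes that hold an NRF1 match. Mrpl22 lies on the plus strand and its stretch is chr11:58171514-58171663, with an ETS match at -53 and an NRF1 match at -33. Mrpl32 lies on the minus strand and its stretch is chr13:14613038-14613187, with overlapping NRF1 matches at -87 and -86 and another at -23.
Mrpl22: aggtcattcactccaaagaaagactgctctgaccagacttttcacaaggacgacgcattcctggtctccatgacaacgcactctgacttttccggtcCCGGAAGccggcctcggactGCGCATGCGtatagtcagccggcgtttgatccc
Mrpl32: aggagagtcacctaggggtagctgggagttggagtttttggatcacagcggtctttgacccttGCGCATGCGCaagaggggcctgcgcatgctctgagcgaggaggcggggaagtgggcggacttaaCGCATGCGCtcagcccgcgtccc

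The second pair belongs to genes with an Mrps symbol and an ETS match close to the start. Mrps18a (plus strand) is shown over chr17:46110854-46111003, with its match at -26. Mrps22 (minus strand) is shown over chr9:98601680-98601829, with its match at -11.
Mrps18a: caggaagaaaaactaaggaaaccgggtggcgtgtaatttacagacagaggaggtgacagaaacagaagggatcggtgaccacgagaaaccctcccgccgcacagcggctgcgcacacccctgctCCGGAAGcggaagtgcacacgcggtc
Mrps22: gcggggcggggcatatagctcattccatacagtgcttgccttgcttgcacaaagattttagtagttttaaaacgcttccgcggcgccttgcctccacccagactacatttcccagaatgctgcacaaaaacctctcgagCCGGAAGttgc

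The most abundant carrier, Slc25a4, is shown as a further example over chr8:46211063-46211212 on the minus strand. Its printed stretch holds 1 ETS match, far from the start at -130, and no match to NRF1 or YY1.
Slc25a4: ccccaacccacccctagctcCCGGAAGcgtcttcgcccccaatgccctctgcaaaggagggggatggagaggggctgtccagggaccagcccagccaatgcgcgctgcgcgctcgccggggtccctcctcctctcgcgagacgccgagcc

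The last stretch is shorter because it is all the sequence there is between a pair of members. Mrpl46 (large subunit, minus strand) and Mrps11 (small subunit, plus strand) start back to back, and chr7:78783090-78783130, written here on the plus strand, is the whole of the 41 bases between their starts. None of the 3 motifs matched inside those bases.
Mrps11: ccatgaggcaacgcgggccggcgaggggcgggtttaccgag

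At least 1 of the 3 motifs was found in 56.5% of the 46 large-subunit promoters, in 51.9% of the 27 small-subunit promoters and in 16.3% of the 43 carrier promoters. Over the 11705 promoters of all tested genes the share was 27.7%. It was 19.6% over the 21262 promoters of protein-coding genes and 14.8% over the 32851 promoters of the RefSeq table. The mitoribosomal promoters therefore stood above the share of all tested genes and the carrier promoters stood below it. The carrier share lay between those of protein-coding genes and of the whole RefSeq table. Start sites were counted separately, so genes with several weigh more: the 46, 27 and 43 promoters belong to 41, 26 and 34 genes. Some carriers counted here had not been tested by Cuffdiff. ETS matches made up the largest part, with 28.3% of large-subunit, 40.7% of small-subunit and 13.95% of carrier promoters, beside 16.0% for tested genes. NRF1 matches were held by 23.9%, 14.8% and 4.65% in the same order, beside 12.5% for tested genes and 8.58% for protein-coding genes. YY1 matches were held by 8.70%, 14.8% and 2.33%, beside 2.82%. The carrier shares for NRF1, ETS and YY1 rest on 2, 6 and 1 of 43 promoters, from 34 genes. Those for ETS and YY1 lie close to those of tested genes. Slc25a3, the phosphate carrier, was the carrier promoter with matches to all 3 motifs. The ordinary CCAAT box (CCAAT) did not separate the classes in this way, with shares of 36.96%, 48.1% and 48.8% beside 37.7%, and the ERR motif (AAGGTCA) was rare in all of them, at 4.35%, 7.41% and 2.33% beside 3.06%. Median GC content of the windows was 57.7%, 59.3% and 59.0%, beside 60.7% for tested genes. A match describes the letters of the window and is not a measured binding site.

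Mitoribosomal genes also started head to head with another gene more often in share. A divergent start within 1000 bases was annotated for 41.3% of large-subunit promoters, 29.6% of small-subunit promoters and 13.95% of carrier promoters, against 16.9% of the promoters of tested genes. The partners were of many kinds, such as Hira, a histone chaperone, for Mrpl40 and Klc4, a kinesin light chain, for Mrpl2. A further 3 are named because of known mitochondrial roles, were picked after the list was seen and stand for no share of the partners. Mrps12 was paired with Sars2, the mitochondrial seryl-tRNA synthetase, at 147 bases. Mrpl43 was paired with Twnk, the helicase of the mitochondrial genome, at 116 bases. Mrpl47 was paired with Ndufb5, a subunit of respiratory complex I, at 308 bases.

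**Figure D1:**
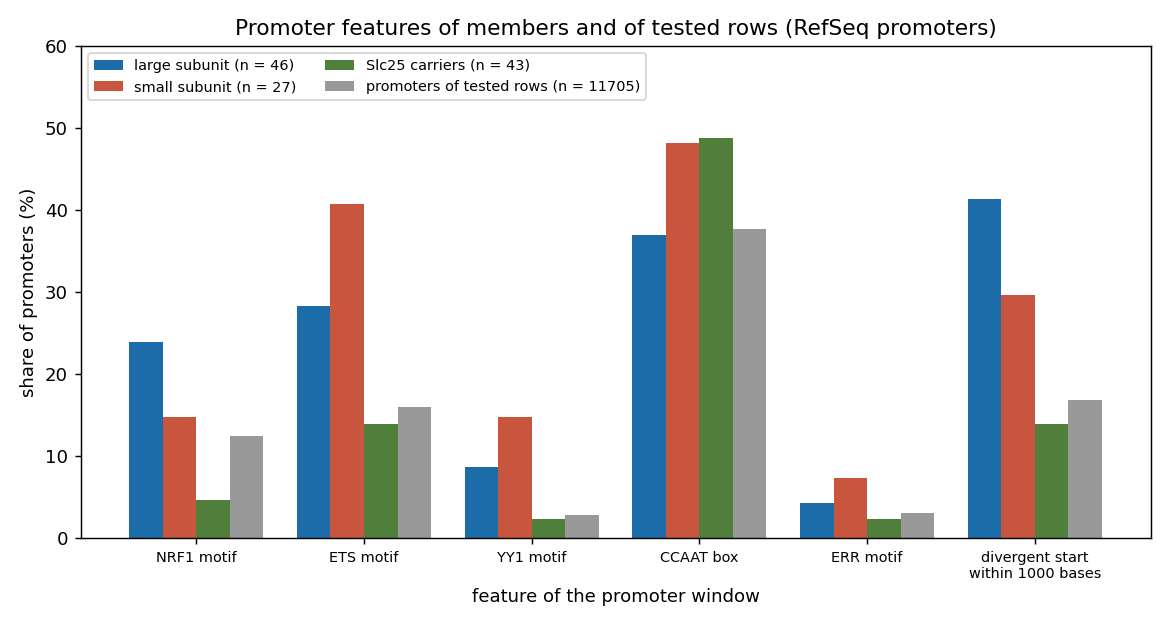
Share of RefSeq promoters (vertical axis, percent) that hold each motif or have a divergent start within 1000 bases (horizontal axis), in the 3 classes of members and in all tested genes. The blue and red bars of the ribosomal subunits stand above the grey bars for NRF1, ETS, YY1 and divergent starts. For NRF1 the green carrier bar stands below the grey one (4.65%, which is 2 of 43 promoters, beside 12.5%). For ETS, YY1 and divergent starts the carrier bar lies only a little below the grey one.

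On build mm9, which the submitters' processing notes name, the members lay on 20 chromosomes, most on chromosome 11 (15 members), 17 (11 members) and 6 (10 members). No ribosomal member lay on the X chromosome, 12 or 18. Members of different classes were also neighbours. Mrpl12 (chr11:120345983-120350068) ended 3082 bases from Slc25a10 (chr11:120353151-120362475). Their levels were unlike, at 8.22 and 18.6 FPKM for Mrpl12 and 0.277 and 1.56 FPKM for Slc25a10 at P3 and P5. On either side of the 41 bases between Mrpl46 (chr7:85920227-85927975) and Mrps11 (chr7:85928017-85937874), Mrpl46 was at 87.2 and 65.3 FPKM and Mrps11 at 41.6 and 44.1 FPKM. The ratio of Mrpl46 to Mrps11 was 2.10 at P3 and 1.48 at P5.

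For the whole series, Cuffdiff had tested 12865 of the 22544 rows, and the median log2 ratio was 0.13 over the 12313 of them that had an FPKM above 0 at P3 and at P5 alike. The sort was checked against marker genes. Of 8 upper-layer markers 3 had larger FPKM at P5, and their summed level was 471 FPKM at P3 and 476 FPKM at P5. Markers of other cells were present too. The summed level at P3 and P5 was 2375 and 3004 FPKM for 8 astrocyte markers, 15.5 and 118 FPKM for 8 microglial markers, 140 and 302 FPKM for 8 markers of the oligodendrocyte lineage, and 916 and 947 FPKM for 8 vessel markers, of which Rgs5 alone was at 911 and 905 FPKM. FPKM was larger at P5 for 7 of 8, 8 of 8, 8 of 8 and 6 of 8 of them. All 7 general neuronal markers found in the table were tested, with sums of 701 and 1205 FPKM, and 6 of them were larger at P5. None of these markers passed q = 0.05 in the authors' deposited table, and their part in the members' values was not tested.

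No member differed between the ages in the authors' deposited test. All 47 large-subunit genes, all 29 small-subunit genes and 36 of the 44 carriers had been tested by Cuffdiff. At q = 0.05, 0 members were higher and 0 lower at P5, where the share of all tested rows called was 0% in each direction. At an unadjusted p under 0.05 there were also 0 members, beside 0.591% of all tested rows that were higher and 0.179% that were lower. The lowest p of a member in the authors' deposited table was 0.195, for Slc25a45. An SE could be computed for 109 members, and every one of their 95% intervals included 0. The median SE was 1.26 log2 units, from 0.84 for Mrpl50 to 19.35 for Mrpl48. Differences of the sizes given below did not pass the deposited test, and the intervals are wide enough to hold both large and absent changes.

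The median levels set the ribosomal genes apart from the carriers, with the limit of transcript length given above. At P3 the median FPKM was 20.2 in the large subunit, 19.0 in the small subunit and 2.72 among the carriers, beside 0.481 over the whole table. At P5 the medians were 20.6, 23.8 and 2.94 FPKM, beside 1.0004. Over tested rows, which leave out 8 carriers, the carriers' medians were 5.17 and 5.05 FPKM at P3 and P5, close to the 4.90 and 5.59 FPKM of all tested rows, while every ribosomal gene had been tested. Both ribosomal subunits were thus at a similar level at each age, and their interquartile ranges overlapped. In the large subunit that range ran from 7.51 to 57.2 FPKM at P3 and from 13.1 to 53.5 FPKM at P5. In the small subunit it ran from 8.71 to 36.4 FPKM and from 11.01 to 36.3 FPKM. On a fold scale the carriers were spread more widely, from 0.232 to 10.8 FPKM at P3 and from 0.955 to 12.3 FPKM at P5. At least 10 FPKM was reached by 29 large-subunit genes at P3 and 39 at P5, by 19 and 22 small-subunit genes, and by 12 and 14 carriers. In percent these were 61.7 and 83.0, 65.5 and 75.9, and 27.3 and 31.8, beside 18.9 and 19.9 for all rows.

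**Figure D2:**
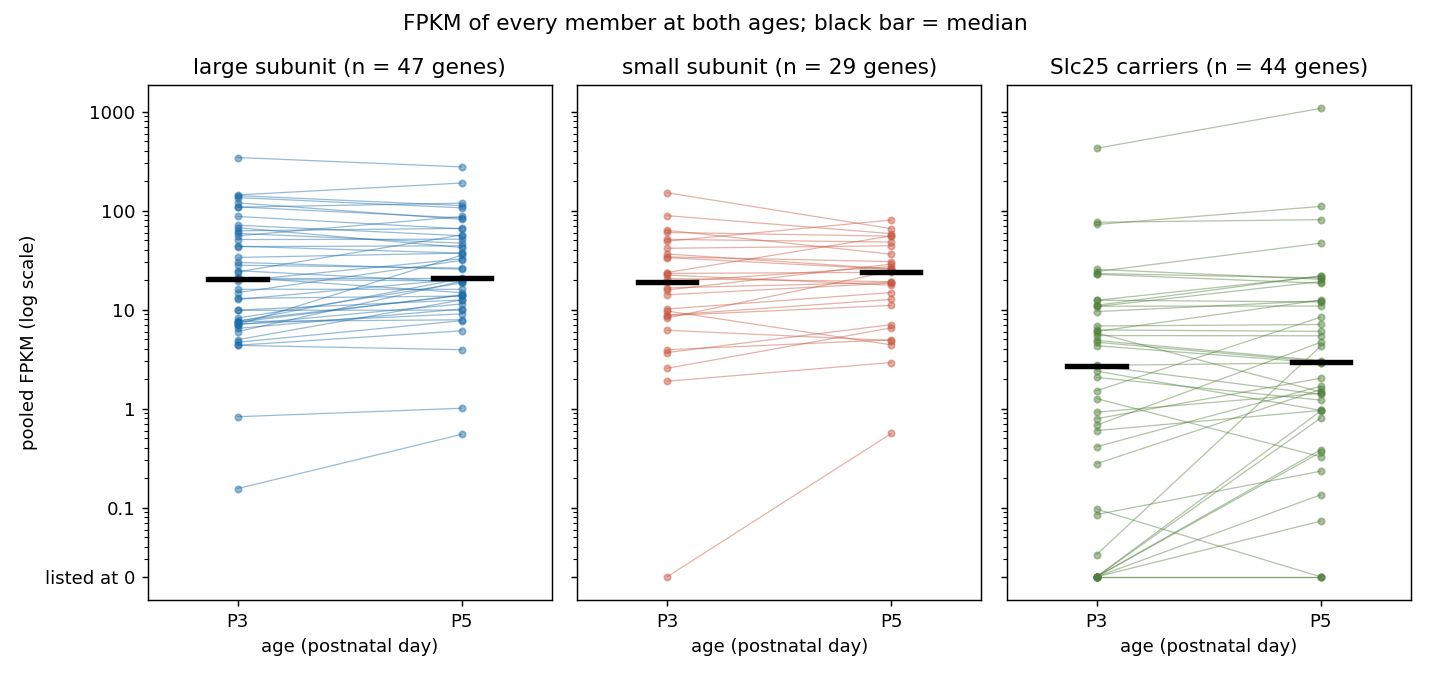
Pooled FPKM on a log scale (vertical axis) of each member at P3 and P5 (horizontal axis), with 1 panel per class, 1 line per gene and a black bar at the median of all members of the class. Most ribosomal genes sit above 5 FPKM with nearly flat lines, while the carriers run from genes listed at 0 to Slc25a4 at 1077 FPKM.

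The medians of the classes differed little between the ages. The median log2 ratio was 0.08 in the large subunit, 0.13 in the small subunit and 0.09 among the carriers, beside 0.13 over all tested rows. FPKM was larger at P5 in 30 and smaller in 17 of the 47 large-subunit genes. The same counts were 16 and 12 in the small subunit, 20 and 14 among carriers, and 6844 and 5469 over the table. A log2 ratio above 1 was found for 8 large-subunit genes, 3 small-subunit genes and 8 carriers, which is 17.0%, 10.7% and 23.5% of them, while 23.9% of all tested rows were above 1. A log2 ratio below -1 was found for 0, 2 and 3 members of the classes, while 10% of all tested rows were below -1. The summed FPKM of the large subunit was 2031 at P3 and 2014 at P5, and that of the small subunit 828 and 773. That of the carriers was 797 and 1549, and without Slc25a4 it was 372 and 472.

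Within the ribosome, direction went with level. Of the 18 mitoribosomal genes with a mean of 50 FPKM or more over both ages, 12 had smaller FPKM at P5, and their median log2 ratio was -0.33. Of the 39 with a mean from 10 to 50 FPKM, 14 were smaller at P5, with a median of 0.15. Of the 18 below 10 FPKM, 3 were smaller at P5, with a median of 0.42. Over all tested rows the same bands had 55.9%, 51.4% and 40.0% of rows smaller at P5 and medians of -0.08, -0.03 and 0.31. The order of the bands was thus the same over the table, where their medians lay closer together than in the ribosome. The bands were chosen after the values were seen, and no test was made of them.

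The 5 most abundant large-subunit genes were Mrpl33, Mrpl28, Mrpl13, Mrpl53 and Mrpl20, all but Mrpl53 with a bacterial counterpart. Mrpl33 was at 344 FPKM at P3 and 276 FPKM at P5, a log2 ratio of -0.32 (SE 0.85). Mrpl28 was at 144 and 190 FPKM, and Mrpl13 at 142 and 112 FPKM. Mrpl53, a protein found in mitochondrial ribosomes and not in bacterial ones, was at 135 and 107 FPKM, and its locus overlaps that of Ccdc142. Mrpl20 was at 108 and 119 FPKM. Differences between the ages were smaller than the SE in each of the 5, and Mrpl33 led the class at both ages.

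The lowest log2 ratios of large-subunit genes reaching 5 FPKM belonged to 3 genes with moderate to high levels. Mrpl50 was at 67.2 and 42.3 FPKM (log2 ratio -0.67, SE 0.84, interval -2.32 to 0.99). Mrpl42 was at 120 and 81.5 FPKM (log2 ratio -0.55, SE 0.93). Mrpl17 was at 21.2 and 14.8 FPKM (log2 ratio -0.52, SE 0.89). All 3 lay within 1 SE of no difference. The highest ratios belonged to genes with lower levels at P3. Mrpl54 was at 7.02 and 35.5 FPKM (log2 ratio 2.34, SE 1.90, interval -1.38 to 6.06). Mrpl47, the counterpart of a bacterial protein near the exit of the peptide tunnel, was at 5.99 and 19.4 FPKM (log2 ratio 1.69, SE 1.70). Mrpl39 was at 7.55 and 20.6 FPKM (log2 ratio 1.44, SE 1.404). In the authors' deposited table their p-values were 0.217, 0.320 and 0.303, with q = 0.999988 for each. Mrpl12, which corresponds to the bacterial stalk protein that recruits translation factors, was at 8.22 and 18.6 FPKM (log2 ratio 1.17, SE 1.51).

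In the small subunit the most abundant genes were Mrps18c, Mrps14, Mrps18a, Mrps28 and Mrps6. Mrps18c was at 151 FPKM at P3 and 65.6 FPKM at P5, the lowest log2 ratio of the class (-1.21, SE 0.99, interval -3.15 to 0.73, p = 0.223 and q = 0.999988 in the authors' deposited table). Mrps14 was at 88.9 and 58.5 FPKM and Mrps28 at 60.2 and 55.1 FPKM. Mrps6 was at 63.2 and 36.3 FPKM (log2 ratio -0.80, SE 1.33), and its locus overlaps that of Slc5a3. Mrps12, a counterpart of the bacterial protein at the decoding site, was at 23.7 and 55.5 FPKM (log2 ratio 1.23, SE 1.23). Mrps24 had the highest ratio, with 8.23 and 24.4 FPKM (log2 ratio 1.57, SE 1.46), and Mrps26 was at 2.55 and 6.54 FPKM (log2 ratio 1.36, SE 2.03). Of the 5 most abundant genes all but Mrps18a had smaller FPKM at P5, and the intervals of all of them included 0.

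Mammals have 3 mitochondrial relatives of the bacterial protein S18, and they differed in level and direction. Mrps18c and Mrps18b belong to the small subunit, while Mrps18a is built into the large one. Mrps18c was the highest at P3 with 151 FPKM, followed by Mrps18a with 49.1 FPKM and Mrps18b with 3.68 FPKM. At P5 Mrps18a was the highest with 80.2 FPKM, followed by Mrps18c with 65.6 FPKM and Mrps18b with 7.05 FPKM. The ratio of Mrps18c to Mrps18b was 41.1 at P3 and 9.30 at P5, with the limit that 30.9% of the Mrps18b transcript and 13.1% of that of Mrps18c recur in other genes. The log2 ratio was 0.71 for Mrps18a (SE 0.98) and 0.94 for Mrps18b (SE 1.76), both with intervals that overlapped that of Mrps18c. The order of Mrps18a and Mrps18c at P5 was not tested.

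Other Mrps genes also sit elsewhere than their symbol says. Mrps30 is a protein of the large subunit, and it was at 9.67 and 4.40 FPKM (log2 ratio -1.14, SE 1.41). Mrps36 is now known as a component of the oxoglutarate dehydrogenase complex, and it was listed at 0 at P3 and at 0.561 FPKM at P5. It was the single ribosomal symbol listed at 0 at either age.

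Proteins inherited from the bacterial ribosome and proteins found in mitochondria alone were compared by level. In the large subunit, the 30 genes with a bacterial counterpart had median FPKM of 20.9 at P3 and 19.9 at P5, and the 17 without one had 14.8 and 31.4. Larger FPKM at P5 was found in 20 of the first and 10 of the second. In the small subunit, with Mrps18a, Mrps30 and Mrps36 left aside, the 16 with a counterpart had medians of 23.0 and 29.7 FPKM and the 10 without one 17.8 and 19.0 FPKM. Mrps18b was counted among those 10, although it is named above as a relative of S18, and Mrps18c among the 16. Larger FPKM at P5 was found in 8 of 16 and 7 of 10. This division was made after the values were seen.

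**Figure D3:**
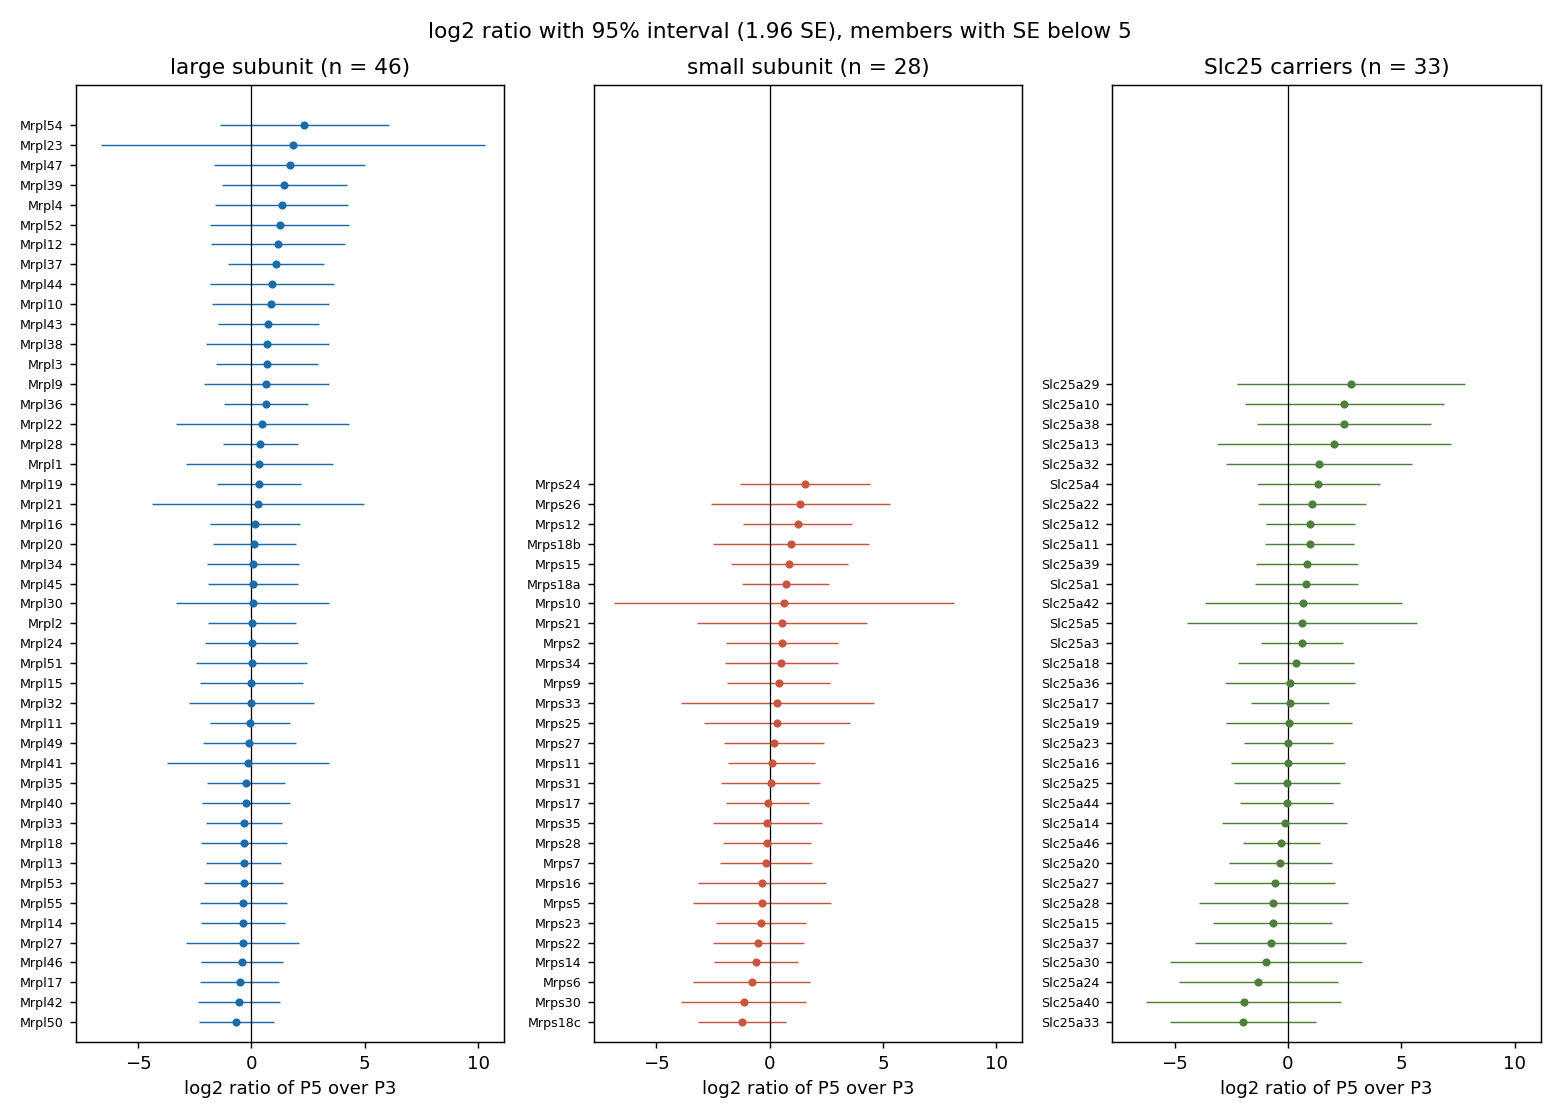
Log2 ratio of P5 over P3 (horizontal axis) with its 95% interval for each member with an SE below 5, ordered by ratio within each class (vertical axis). Every interval crosses the line at 0, from Mrpl50 at -0.67 to Mrpl54 at 2.34 in the large subunit.

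Among the carriers, Slc25a4 stood far above the rest. It encodes the ADP/ATP carrier of heart, muscle and brain, which exports ATP from the matrix in exchange for ADP. It was at 426 FPKM at P3 and 1077 FPKM at P5, ranked 84 and 18 among all rows of the table. The log2 ratio was 1.34 (SE 1.38, interval -1.36 to 4.04, p = 0.331 and q = 0.999988 in the authors' deposited table). Slc25a4 made up 53.4% of the summed carrier FPKM at P3 and 69.6% at P5, and it accounts for most of the difference between the carriers' sums. The other 2 ADP/ATP carriers were low. Slc25a5, the isoform of proliferating and many other cells, was at 0.920 and 1.43 FPKM, and Slc25a31, known from the testis, was at 0.0966 FPKM at P3 and listed at 0 at P5. The ratio of Slc25a4 to Slc25a5 was 463 at P3 and 755 at P5. The value of Slc25a5 has a limit of its own, since much of its transcript recurs in pseudogenes, as described below.

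The next carriers serve phosphate and peroxisomal transport. Slc25a3, which brings in the phosphate for ATP synthesis, was at 72.4 FPKM at P3 and 110 FPKM at P5 (log2 ratio 0.60, SE 0.92). Slc25a17, the member of the family in the peroxisome membrane, was at 76.2 and 81.0 FPKM (log2 ratio 0.09, SE 0.88). At P3 these genes were in the order Slc25a17 and then Slc25a3, and at P5 the reverse, an order that was not tested. The calcium-regulated carriers of ATP-Mg and phosphate were lower, with Slc25a23 at 10.8 and 10.9 FPKM, Slc25a25 at 6.23 and 6.02 FPKM and Slc25a24 at 2.39 and 0.960 FPKM.

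Carriers of the malate-aspartate shuttle had larger FPKM at P5. Slc25a11, the oxoglutarate/malate carrier, was at 24.2 and 46.9 FPKM (log2 ratio 0.95, SE 0.99). Slc25a12, the aspartate/glutamate carrier of brain and muscle, was at 11.04 and 21.97 FPKM (log2 ratio 0.99, interval -0.97 to 2.95). Its paralog Slc25a13, the main form in liver, was at 0.412 and 1.68 FPKM, so that the ratio of Slc25a12 to Slc25a13 was 26.8 at P3 and 13.1 at P5. All 3 had p above 0.3 in the authors' deposited table. Of the glutamate carriers, Slc25a18, the form associated with astrocytes, was at 9.54 and 12.3 FPKM, and Slc25a22 was at 6.01 and 12.5 FPKM (log2 ratio 1.06, SE 1.21). The ratio of Slc25a22 to Slc25a18 was 0.630 at P3 and 1.02 at P5.

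Carriers of carboxylates and fatty acid derivatives were mixed. Slc25a1, which exports citrate, was at 12.4 and 21.7 FPKM (log2 ratio 0.80, SE 1.16). Slc25a10, the dicarboxylate carrier, was at 0.277 and 1.56 FPKM, and the ratio of Slc25a11 to Slc25a10 was 87.2 at P3 and 30.0 at P5. Slc25a20, which takes acylcarnitines into the matrix for oxidation, was at 25.5 and 20.2 FPKM (log2 ratio -0.33, SE 1.15). The 3 therefore did not share a direction, and no interval left out 0.

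Carriers of cofactors, iron, glycine and nucleotides had ratios in both directions. Slc25a38, which takes glycine into the matrix for heme synthesis, was at 1.51 and 8.40 FPKM (log2 ratio 2.47, SE 1.95, interval -1.36 to 6.30). Slc25a33, a pyrimidine nucleotide carrier, was at 5.82 and 1.47 FPKM (log2 ratio -1.98, SE 1.63, interval -5.18 to 1.22), and its paralog Slc25a36 was at 2.73 and 2.91 FPKM. The glutathione carriers had opposite directions, with Slc25a39 at 10.7 and 19.2 FPKM and Slc25a40 at 1.26 and 0.326 FPKM. The iron carriers had the same direction. Slc25a28 (mitoferrin 2) was at 4.68 and 2.98 FPKM, and Slc25a37 (mitoferrin 1), the form of red cell precursors, was at 2.06 and 1.22 FPKM. Beside the iron and glycine carriers stand the erythroid markers: 5 of 7 were found in the table, Hba-a2 was listed at 0 at both ages, 2 were tested, and their summed level was 2.62 FPKM at P3 and 71.1 FPKM at P5. The highest ratio of all belonged to Slc25a26, the carrier of S-adenosylmethionine, at 0.0335 and 4.28 FPKM. Its SE was 10.19 log2 units and its locus overlaps that of Lrig1.

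Carriers related to the uncoupling proteins had values above 0 at both ages. Slc25a14 was at 23.1 and 20.9 FPKM, Slc25a27 at 4.32 and 2.90 FPKM and Slc25a30 at 2.70 and 1.39 FPKM. Slc25a46, an outer membrane protein that takes part in mitochondrial fission and fusion, was at 22.7 and 18.4 FPKM (log2 ratio -0.30, SE 0.87). All 4 were smaller at P5, each by less than its SE.

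The bottom of the carrier range was filled by genes listed at 0. Slc25a41 and Slc25a43 were listed at 0 at both ages. Slc25a2, Slc25a21, Slc25a34, Slc25a45, Slc25a47 and Slc25a48 were listed at 0 at P3 and had between 0.0732 and 0.947 FPKM at P5. The deposited locus of Slc25a2 spans 60 other rows of the table. A value of 0 can be a failed estimate in a table of this kind, so no fold is given. No row carries the symbol Slc25a51.

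**Figure D4:**
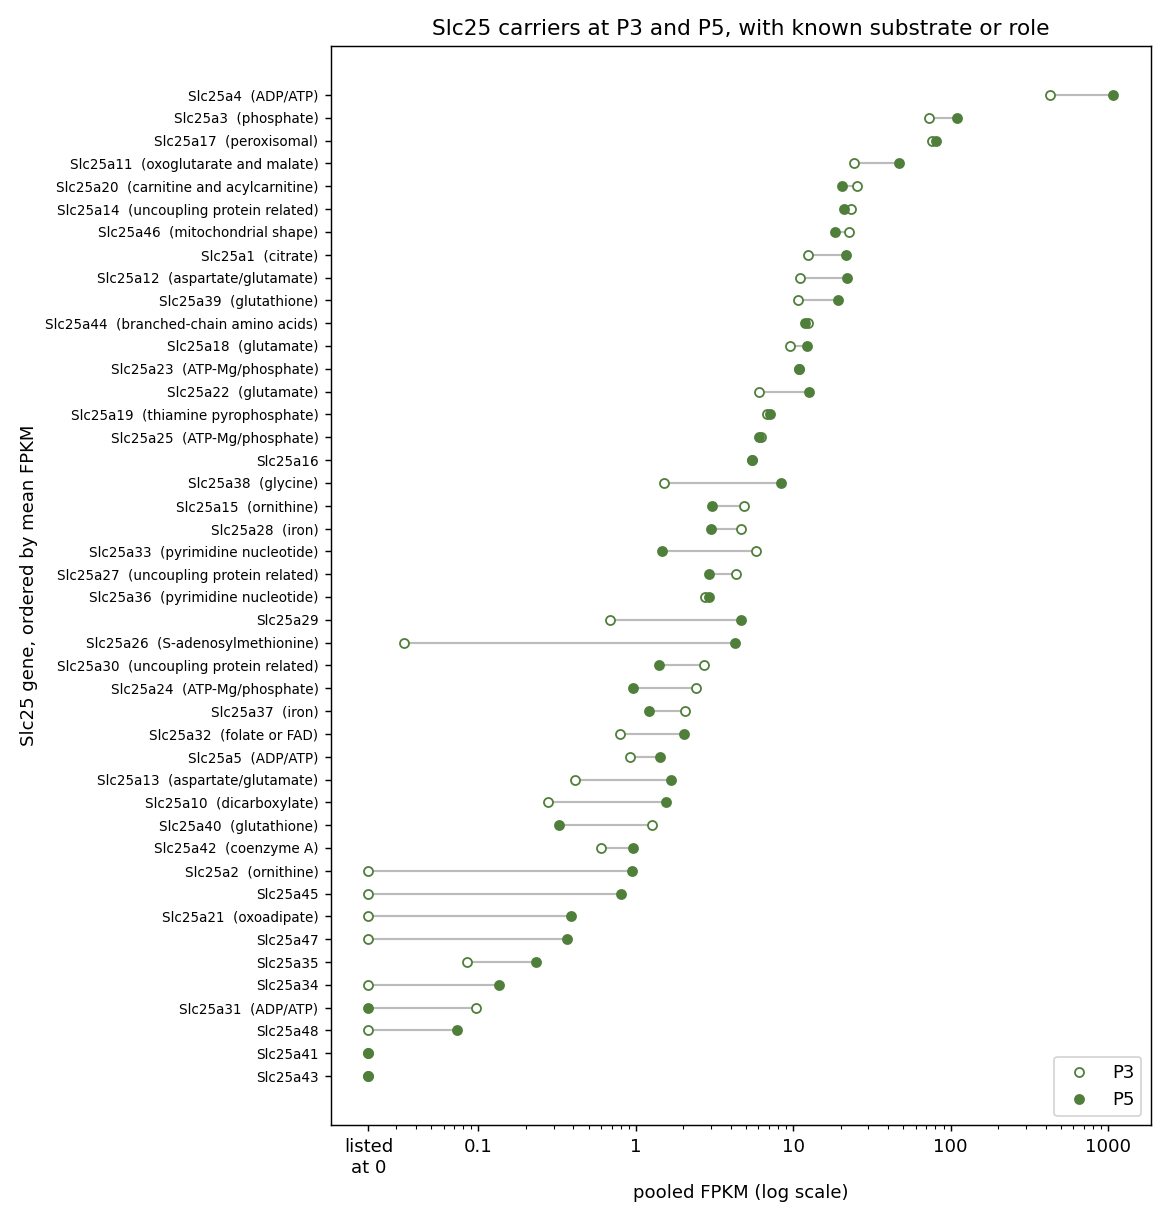
Pooled FPKM on a log scale (horizontal axis) of the 44 Slc25 genes, ordered by mean FPKM (vertical axis), with P3 as open and P5 as filled circles and the known substrate or role in brackets where one was assigned. Slc25a4 lies to the right of all other carriers at both ages, and the longest lines belong to genes below 10 FPKM.

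Sequence copies elsewhere in the genome touch some of these levels. For the longest coding transcript of each gene in GENCODE M21, the share of 50-base stretches that also occur in transcripts of other genes was computed. It was under 10% for 42 of 47 large-subunit genes, 21 of 29 small-subunit genes and 41 of 44 carriers. It was highest for Mrpl23 at 66.7%, with 1 pseudogene, and Mrpl23 was the lowest large-subunit gene at 0.156 and 0.550 FPKM. Slc25a5 followed at 46.6% with 9 pseudogenes, and Mrps36 at 36.2% with 7. Among small-subunit genes the 8 with 10 to 50% had median FPKM of 5.05 at P3 and 6.004 at P5, and the 21 under 10% had 23.2 and 25.8. Mrps18c was among those 8, at 13.1% with 2 pseudogenes, and yet the most abundant gene of its class at 151 and 65.6 FPKM, and Mrps18b was at 30.9%. In the large subunit Mrpl42 was at 18.8% with 120 and 81.5 FPKM, and Mrpl27 at 35.4% with 24.7 and 18.9 FPKM. The genes of the cytosolic ribosome, whose pseudogenes are many, were read in the same way. Of 79 with a transcript, 27 had 50% or more, with median FPKM of 0.118 at P3 and 0.274 at P5, while the 11 under 10% had 11.9 and 10.04. How reads with several matches were counted is not given in the sources used here, and the part of shared sequence in these levels was not tested. A low value of Mrpl23, Mrps36, Slc25a5 or Mrps18b is therefore uncertain.

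**Figure D5:**
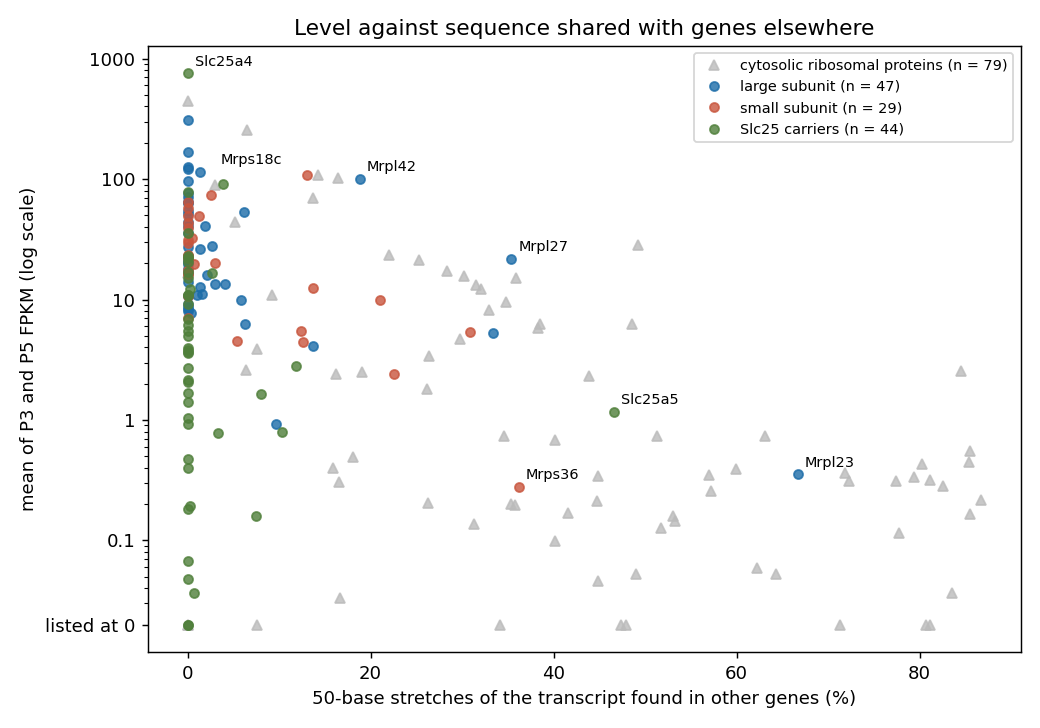
Mean of the P3 and P5 FPKM on a log scale (vertical axis) against the percent of 50-base stretches of a gene's transcript that also occur in other genes (horizontal axis), with 1 point per gene. Most members lie near 0%, and Mrpl23 at 66.7%, Slc25a5 at 46.6% and Mrps36 at 36.2% lie low in the plot.

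Related classes give the scale of these values. The 90 nuclear subunits of the respiratory chain had median FPKM of 56.4 at P3 and 69.6 at P5, above both ribosomal subunits, and a median log2 ratio of 0.15. The 83 cytosolic ribosomal protein genes had medians of 0.395 and 0.565 FPKM, with the limit just given. The 292 other SLC genes, which include the transporters of the plasma membrane, had medians of 0.309 and 1.15 FPKM. Among the 166 of them tested and with values above 0 at P3 and P5, 121 had larger FPKM at P5, the median log2 ratio was 0.64, and 42.2% were above 1. Of the Slc25 carriers 20 of 34 had larger FPKM at P5, with a median log2 ratio of 0.09. Those 34 leave out 6 carriers listed at 0 at P3 alone, and over all members with a pseudocount of 0.1 FPKM the carriers' median was 0.47. The difference between the SLC groups was not tested.

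Other genes of the pathway were read from 6 lists, and 0 of their genes passed q = 0.05. Of 12 tested mitochondrial translation factors, 6 had larger and 6 smaller FPKM at P5, with a median log2 ratio of -0.04. Tsfm, the exchange factor of the elongation factor EF-Tu, was at 13.8 and 25.7 FPKM, and Mtfmt, which formylates the initiator tRNA, was at 4.11 and 1.58 FPKM. The 20 tested genes of ribosome assembly divided into 13 larger and 7 smaller, with a median of 0.64. Grsf1, an RNA-binding protein of mitochondrial RNA granules, was at 37.4 and 23.8 FPKM, and Gtpbp5, a GTPase of large-subunit assembly, was at 0.292 and 7.72 FPKM (log2 ratio 4.73, SE 3.12).

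The list of tRNA synthetases used in mitochondria had 21 tested genes, including Qrsl1 and Gatc, which are not themselves synthetases. Of the 21, 1 was listed at 0 at P3 and had FPKM above 0 at P5. Of the other 20, 9 were larger and 11 smaller at P5, with a median log2 ratio of -0.05. Kars and Gars, whose products serve both the cytosol and mitochondria, were the highest, at 48.96 and 45.96 FPKM and at 32.5 and 39.2 FPKM. Genes that copy, transcribe and process mitochondrial DNA and RNA divided into 7 larger and 7 smaller, with a median of -0.06. Mtpap, the mitochondrial poly(A) polymerase, was at 25.1 and 9.75 FPKM (log2 ratio -1.36, SE 0.97), and Polg2, the accessory subunit of the mitochondrial DNA polymerase, at 28.7 and 15.2 FPKM.

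Ribosomal proteins that do not carry an Mrp symbol with a number had 4 of 7 genes larger at P5. Chchd1, a small-subunit protein, was at 263 and 178 FPKM, in the range of the highest Mrpl genes, and Ict1, which acts in the large subunit as a peptide-release enzyme, was at 58.7 and 91.3 FPKM. Carriers and channels outside the Slc25 symbols had 10 of 17 larger at P5, with a median log2 ratio of 0.33. The highest was Sfxn5, of the sideroflexin family, at 727 and 532 FPKM (log2 ratio -0.45, SE 2.39). Ucp2, an uncoupling protein of the same structural family as the Slc25 carriers, was at 0.714 and 4.22 FPKM (log2 ratio 2.56, SE 1.69, p = 0.130 and q = 0.999988 in the authors' deposited table). Microglia are a known site of Ucp2 expression, and the microglial markers given above were larger at P5 as well. Their part in the value of Ucp2 was not tested.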

How the data were processed

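RNA sequencing of 6 samples was compared between 2 ages, with groups taken from the ages in the sample labels. TopHat, Cuffdiff 2.02 and build mm9 are named, with no role or order, per the submitters' processing notes. For the annotation, read length, strandedness and counting of multiply mapped reads, the answer is not given in the sources used here. The authors deposited FPKM with 1 pooled value per age, a log2 ratio and a test statistic (both handled as scores, because a placeholder stands where 1 age is listed at 0), a p-value and a q-value per row, per the file headers. The depth of each library is unknown, and 0 columns of per-sample values were left aside. Because values are pooled, the test was the authors' Cuffdiff test at q = 0.05 over all tested rows. Deposited p-values matched those of a standard normal statistic (two-sided) to within 2.8e-06, so dividing the size of each log2 ratio by that of its statistic gave the SE, and 1.96 SE either side gave a 95% interval. Replicates are called biological in the labels.

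Members and lists were chosen with earlier results of these data known, so lists were described by counts and medians with no test. Within each class the genes named were the 5 with the highest mean FPKM and the 3 highest and 3 lowest ratios among those with at least 5 FPKM at either age, together with carriers of known substrate and members of special place. Of each pathway list they were the 2 highest and the lowest p in each direction, and some of these are not reported here. Further carriers, and members with shared sequence, were named after their values were seen. Loci are on mm9, with starts read as counted from 0 and printed counted from 1. The locus of 13 members overlaps another row, and without strand information such reads cannot be told apart. Promoters are RefSeq windows of GRCm38.p6, used for sequence alone. The alternatives tried were other thresholds, pseudocounts, filters, centring, means and other class boundaries. The code that rescales the statistic was checked on simulated independent normal values. That check does not tell how large a change of a member would have to be to be called here. Python 3.11.15, numpy 2.4.6, pandas 2.3.3, scipy 1.17.1 and matplotlib 3.10.9 were used.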

Additional observations from a re-analysis of the deposited data

How the results depend on the processing

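The count of members that differed was 0 at q = 0.05 and stayed 0 at q = 0.01, under Bonferroni adjustment, at an unadjusted p under 0.05 and after the statistic was divided by its robust spread of 0.662, a setting that called 3 rows of the whole table. The small medians of the log2 ratio depend on the scaling. Centred on the median of all tested rows, the median log2 ratio was -0.049 in the large subunit and -0.041 among carriers, opposite in sign to the values as deposited, and 0.0042 in the small subunit. Taking means in place of medians gave 0.32 for the large subunit and 0.50 for the carriers, and a pseudocount of 0.1 FPKM over all members gave 0.47 for the carriers. The carriers' median FPKM was 5.17 at P3 and 5.05 at P5 over tested rows, and 5.82 and 6.02 over rows with at least 1 FPKM at either age, because genes at or near 0 drop out. Of the class medians and the count of members called under their alternatives, 48 stayed within the tolerance used (no change in the count, 0.1 for a median log2 ratio, 1.5 times for a median FPKM), 8 moved further and 2 changed sign. Within that tolerance, the median log2 ratio without overlapping loci was 0.13 in the large subunit and 0.08 in the small subunit, and that of the carriers with a pseudocount of 1 FPKM was 0.14, each over 1.5 times from its reported value. No row names a member beside other symbols, so that alternative gave no value of its own. No paired analysis was possible because the deposited table holds pooled values per age and no column per replicate, and for the same reason no replicate could be left out. Depth limits these results to an unknown degree, as the table holds no counts.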
